A study of Mus musculus with 4 samples.

Results

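Asb2, Lilrb4a, Lilrb4b, Miat, Mmp9, Csf1, Epas1, Hic1, Penk and Fgl2 are 10 of the 19044 gene symbols counted in RNA of Treg cells, the regulatory CD4 T cells that express Foxp3 and hold other immune cells in check. They were selected on the measured difference between the library called aTreg and the library called rTreg, as genes far higher in aTreg in one or both genotypes. That contrast is therefore described below and not tested. The selection named no fixed fold. The gene symbols were found in the count table for all 10.

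Messenger RNA was sequenced from Treg cells of mouse spleen and peripheral lymph nodes, and the labels give no treatment. The WT group carried Foxp3-YFP-Cre, a Cre recombinase with a yellow fluorescent protein expressed under Foxp3 control. The other group carried Ripk1 fl/fl together with Foxp3-YFP-Cre, so that Cre, which the WT group carries too, can remove the loxP-flanked part of Ripk1 in Foxp3-expressing cells. Each genotype gave 1 rTreg and 1 aTreg library, 4 in all. The letters r and a, which are not explained in the labels, stand for resting and activated in this field. Neither the sort gate nor the number, age or sex of the mice is stated in the sources used here.

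Treg cells that have met antigen gain adhesion and effector molecules and secrete mediators, whereas resting Treg cells recirculate through lymphoid organs. The selected genes act at several levels of such a programme. ASB2 is the substrate-recognition subunit of a Cullin-5 ubiquitin ligase, the LILRB4 proteins are cell-surface immunoglobulin-like receptors, and CSF1, MMP9, proenkephalin and FGL2 are made for secretion. EPAS1 (HIF-2 alpha) and HIC1 are transcription factors, and Miat is a long noncoding RNA.

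The libraries held between 17588754 and 20868319 counts, and levels below are CPM (counts relative to library size, after TMM scaling). A level of 3 counts, the limit that a count of 0 allows, is 0.143 to 0.17 CPM. Foxp3 lay between 619 and 694 CPM in the 4 libraries. Cd44, an adhesion receptor of activated T cells, was 81.2 and 68.5 CPM in the rTreg libraries (WT, then knockout-labelled) and 119 and 95.5 CPM in the aTreg libraries, and it rose in aTreg by 0.52 on the log2 scale (edgeR quasi-likelihood test, adjusted p = 0.000252). Ripk1 itself was 83.6 and 77.5 CPM in the WT libraries (rTreg, then aTreg) and 84.7 and 80.8 CPM in the knockout-labelled ones. Gene-level counts thus did not show the deletion (edgeR adjusted p = 0.658), and "knockout-labelled" or "KO-labelled" is used for that genotype. Xist, the transcript of the inactive X chromosome, was 299 and 338 CPM in the WT libraries and 0.284 and 0.213 CPM in the KO-labelled ones, while the Y-linked Ddx3y was between 97.5 and 126 CPM in every library. The WT libraries thus held both Xist and Y-linked RNA. Of the Y-linked genes, Eif2s3y rose in the KO-labelled libraries by 0.50 (edgeR adjusted p = 0.000126) and Kdm5d by 0.42 (0.000507). Ddx3y (0.13, edgeR adjusted p = 0.136) and Uty (0.11, 0.511) did not pass. Genotype and whatever set the Xist and Y-linked levels cannot be told apart in this design.

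Asb2 (chromosome 12, 103321142 to 103356001, minus strand, GRCm38) encodes a ligase subunit that picks filamins and JAK kinases for degradation. In the WT genotype it measured 4.34 CPM in rTreg and 57.3 in aTreg, and in the KO-labelled genotype 10.2 and 84.6. Both aTreg libraries were above both rTreg libraries, and the KO-labelled library was the higher one in each state. The log2 ratio of aTreg to rTreg came to 3.69 for WT and 3.04 for KO-labelled, the former second to Lilrb4a among the 10 genes. With state as an additive term, Asb2 rose in the KO-labelled libraries by 0.76 on the log2 scale (SE 0.134, edgeR adjusted p = 0.000484).

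Lilrb4a and Lilrb4b lie 4252 bases apart on the plus strand of chromosome 10 (51490956 to 51496611 and 51480632 to 51486703, GRCm38). The annotation calls the second gene Lilr4b. Their transcripts are close copies: 871 of 907 aligned coding bases were identical (96%). The start of the longest coding exon of each is shown because it lets a reader see how few bases separate the 2 genes, with the 5 differing bases of 120 in capitals, chr10:51491861-51491980 and chr10:51481567-51481686, plus strand.
Lilrb4a: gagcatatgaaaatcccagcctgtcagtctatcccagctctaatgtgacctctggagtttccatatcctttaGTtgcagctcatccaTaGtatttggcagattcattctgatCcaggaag
Lilrb4b: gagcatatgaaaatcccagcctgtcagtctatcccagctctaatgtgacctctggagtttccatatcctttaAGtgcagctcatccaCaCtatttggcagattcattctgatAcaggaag
Of all windows of 100 bases in the Lilrb4a transcript, 14.3% occur without a mismatch in the Lilrb4b transcript, and 10.5% of those of Lilrb4b occur in Lilrb4a. Reads from such windows cannot be placed by sequence, so the split of counts between the pair is uncertain.

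Lilrb4a, which encodes a receptor with inhibitory motifs in its tail, measured 0.667 CPM (14 counts) in WT rTreg, 12 CPM in WT aTreg, 4.71 CPM in KO-labelled rTreg and 32.7 CPM in KO-labelled aTreg. Lilrb4b measured 1.95, 16.7, 12.4 and 63.6 CPM in the same order. Each gene was lowest in WT rTreg and highest in KO-labelled aTreg, and the KO-labelled rTreg library lay closer to WT aTreg than to WT rTreg for Lilrb4b. The log2 ratio of aTreg to rTreg for Lilrb4a was 3.98 with WT and 2.77 with KO-labelled libraries, and for Lilrb4b 3.03 and 2.35. Across states, Lilrb4a rose in the KO-labelled libraries by 1.75 (SE 0.238, edgeR adjusted p = 6.68e-05) and Lilrb4b by 2.15 (SE 0.160, edgeR adjusted p = 5.09e-07). Lilrb4a passed the level filter, a mean of 5 CPM, only through its aTreg libraries, where the selection made it high. The p-value of Lilrb4a is therefore a description. With the counts of both genes summed, which removes the uncertain split, the genotype change was 2.03 (edgeR adjusted p = 1.29e-06). Summing would not restore reads counted for neither gene. The summed pair gave a log2 ratio of aTreg to rTreg of 3.40 for WT and 2.49 for KO-labelled.

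Among the secreted products, Csf1, the growth factor of macrophages, measured 13.7 CPM (WT rTreg), 45.7 CPM (WT aTreg), 22.7 CPM (KO-labelled rTreg) and 94.1 CPM (KO-labelled aTreg). Mmp9, a secreted gelatinase that cleaves matrix proteins, measured 1.48, 8.98, 2.44 and 18.8 CPM in that order. For both genes KO-labelled aTreg was the highest library, and both aTreg libraries were above both rTreg libraries. The log2 ratio of aTreg to rTreg was 1.73 (WT) and 2.05 (KO-labelled) for Csf1, and 2.52 and 2.89 for Mmp9. The genotype change was 0.91 for Csf1 (SE 0.101, edgeR adjusted p = 1.29e-05) and 0.96 for Mmp9 (SE 0.220, edgeR adjusted p = 0.00312), and both rose. Mmp9 passed the level filter, a mean of 5 CPM, only through its aTreg libraries, where the selection made it high. The p-value of Mmp9 is therefore a description. Csf1 lies on chromosome 3 (107741048 to 107760469, minus strand) and Mmp9 on chromosome 2 (164940780 to 164955850, plus strand), with no other annotated gene over either.

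Penk, which encodes the precursor of the enkephalin opioid peptides, measured 6.34 CPM (WT rTreg), 35.9 CPM (WT aTreg), 10.8 CPM (KO-labelled rTreg) and 28.2 CPM (KO-labelled aTreg). Fgl2, a fibrinogen-like protein that Treg cells secrete, measured 18.0, 62.6, 28.3 and 54.9 CPM in that order. Both genes were highest in WT aTreg and lowest in WT rTreg, with the KO-labelled libraries between them. The log2 ratio of aTreg to rTreg was 2.48 (WT) and 1.37 (KO-labelled) for Penk, and 1.79 and 0.95 for Fgl2. The additive genotype change was 0.10 for Penk (SE 0.201, edgeR adjusted p = 0.721) and 0.18 for Fgl2 (SE 0.149, edgeR adjusted p = 0.336), and neither passed the threshold of 0.05. Penk lies on chromosome 4 (4133531 to 4138819, minus strand). Fgl2 lies on chromosome 5 (21372642 to 21378374, plus strand) opposite Ccdc146, which had 14 to 22 counts a library against 378 to 1289 for Fgl2.

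Of the transcription factors, Epas1, the oxygen-regulated HIF-2 alpha subunit (chromosome 17, 86753700 to 86833410, plus strand), measured 3.0 CPM (WT rTreg), 9.62 CPM (WT aTreg), 10.7 CPM (KO-labelled rTreg) and 45.4 CPM (KO-labelled aTreg). It was the one member whose rTreg and aTreg libraries overlapped, since KO-labelled rTreg exceeded WT aTreg. Its log2 ratio of aTreg to rTreg was 1.65 (WT) and 2.07 (KO-labelled). Epas1 rose in the KO-labelled libraries by 2.09 (SE 0.160, edgeR adjusted p = 6.39e-07). Hic1, a zinc-finger repressor (chromosome 11, 75164565 to 75169519, minus strand), measured 4.29, 27.1, 5.17 and 15.3 CPM in that order. The rTreg libraries of Hic1 were close together and the WT aTreg library stood highest, with a log2 ratio of aTreg to rTreg of 2.63 (WT) and 1.55 (KO-labelled). Its additive genotype change was -0.42 (SE 0.221, edgeR adjusted p = 0.138), and with no filter on low counts it was -0.41 and passed the threshold (edgeR adjusted p = 0.0467). The rTreg levels of Hic1 average under the filter of 5 CPM, so it passed that filter only through its aTreg libraries.

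Miat (chromosome 5, 112213228 to 112229395, minus strand), a long noncoding RNA, measured 1.19 CPM (WT rTreg), 7.72 CPM (WT aTreg), 1.42 CPM (KO-labelled rTreg) and 11.5 CPM (KO-labelled aTreg). The rTreg libraries held 25 counts each, and a difference between them was not detectable at this depth. The log2 ratio of aTreg to rTreg was 2.60 (WT) and 2.93 (KO-labelled), and the genotype change of 0.49 did not pass (SE 0.249, edgeR adjusted p = 0.127). Like Mmp9, Miat entered that test only through its aTreg libraries. Reads on the opposite strand cannot be separated, since no source used here says whether the counting was stranded. Asb2, Lilrb4a, Miat and Penk each have an annotated gene on the opposite strand that was not analysed here. On the same strand, the annotated protein-coding gene Gm49339 overlaps both Lilrb4a and Lilrb4b, and other annotated genes overlap Miat and Epas1. None of these same-strand genes was among the counted symbols. How the overlap affected the counts was not tested.

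**Figure D1:**
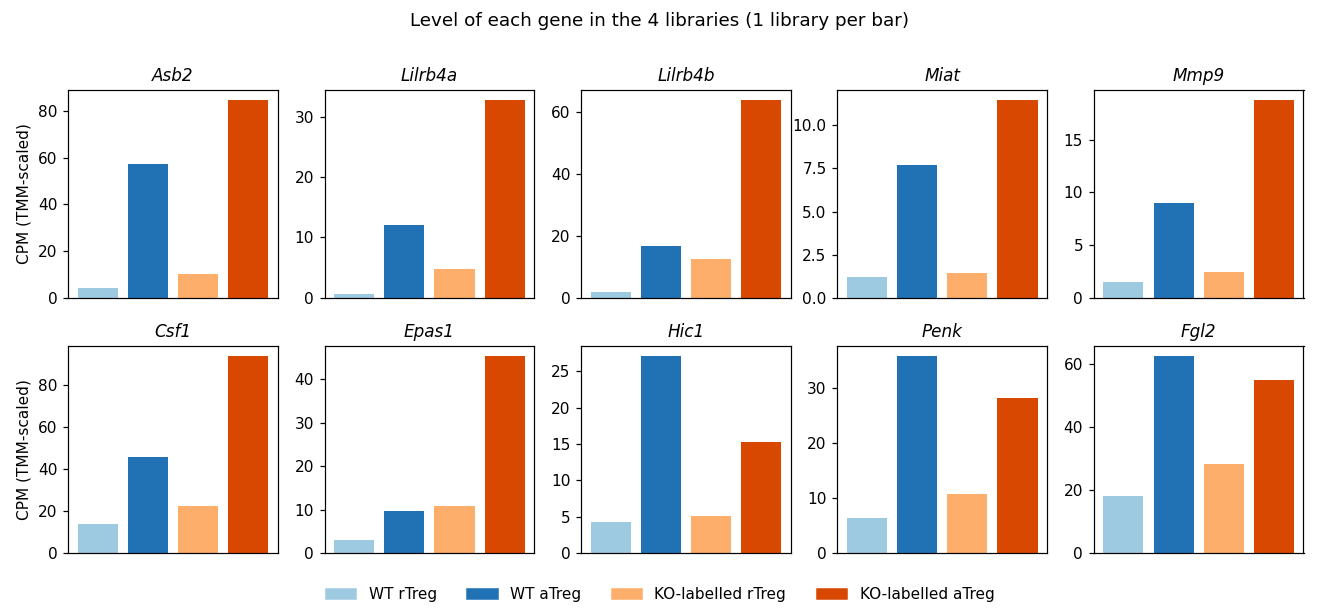
Level of each of the 10 genes in the 4 libraries, as TMM-scaled CPM, with 1 bar per library. Each gene has its own linear axis, so bar heights cannot be compared between genes. WT rTreg is the lowest bar for every gene, and KO-labelled aTreg is the highest for 7 of them and WT aTreg for Hic1, Penk and Fgl2.

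Set beside each other, the 10 genes were at least 2-fold higher in aTreg in all 10 cases in WT and in 9 cases in the KO-labelled genotype, where Fgl2 had a log2 ratio of 0.95. Of the 9680 genes tested, 1.87% were as far apart in WT and 0.95% in the KO-labelled genotype. Both aTreg libraries exceeded both rTreg libraries for 9 of the 10, against 14.1% of tested genes, and the additive edgeR fit called 7.91% of genes higher and 5.44% lower in aTreg. Nothing is read from these shares, because the genes were picked on this contrast. The 10 genes had a median log2 ratio of 2.56 (WT) and 2.21 (KO-labelled), and that of all tested genes was near 0. In bulk libraries, fewer cells of a type and less RNA per cell cannot be told apart.

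The aTreg to rTreg log2 ratio differed between the genotypes in both directions. It was larger in the KO-labelled genotype for 4 genes, by 0.33 for Miat, 0.37 for Mmp9, 0.31 for Csf1 and 0.42 for Epas1. It was smaller for the other 6, with differences (KO-labelled minus WT) of -0.65 for Asb2, -1.21 for Lilrb4a, -0.67 for Lilrb4b, -1.09 for Hic1, -1.11 for Penk and -0.84 for Fgl2. On the authors' deposited variance-stabilised values the order turned for the Lilrb4 pair, with ratios of 1.14 (WT) and 1.37 (KO-labelled) for Lilrb4a and 1.11 and 1.51 for Lilrb4b, and Asb2 was nearly equal at 1.99 and 1.98. The 95% counting interval of the difference left out 0 for 7 genes and spanned it for Miat (-0.52 to 1.18), Mmp9 (-0.35 to 1.08) and Epas1 (-0.05 to 0.89). These intervals cover counting error only, and with 1 library per group the differences were not tested.

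**Figure D2:**
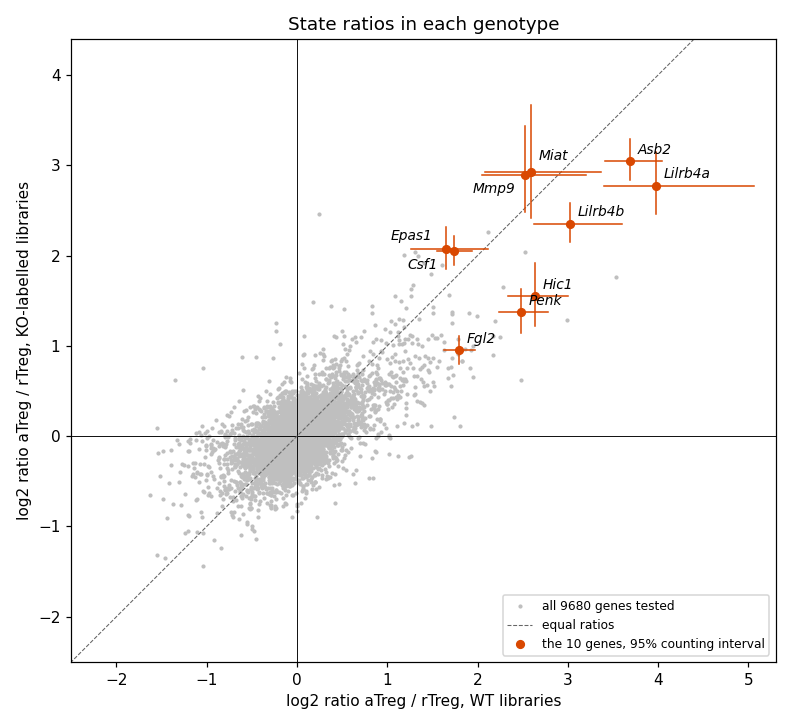
Log2 ratio of aTreg to rTreg in the KO-labelled genotype (vertical axis) against the same ratio in WT (horizontal axis), with every tested gene as a grey point and the 10 genes named. Hic1, Penk, Fgl2, Asb2 and the Lilrb4 pair lie under the diagonal of equal ratios, and Miat, Mmp9, Csf1 and Epas1 lie above it.

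The genotype contrast is not the one the selection names, and it was tested, although the genes were picked with earlier results of these data known. Asb2, Lilrb4a, Lilrb4b, Mmp9, Csf1 and Epas1 rose in the KO-labelled libraries, which is 6 of 10 where 24.4% of the 9680 tested genes were called higher. Lilrb4a, Mmp9 and Miat had rTreg levels of at most 4.71, 2.44 and 1.42 CPM, under the filter of 5 CPM. These 3 entered the test only through their aTreg libraries, where the selection made them high, and Lilrb4a and Mmp9 are among the 6. The same holds for Hic1, since its rTreg levels of 4.29 and 5.17 CPM average under 5 CPM. The 6 of 10 and the 24.4% are therefore a description. Called lower were 0 of the 10 by edgeR, 0 at an unadjusted p under 0.05 and 0 by DESeq2, while edgeR called 22.8% of tested genes lower; Hic1 was called lower with no filter. The median change of the 10 was 0.84 and that of all tested genes was 0.0021. Ranked from the most increased gene down, Lilrb4b was 29, Epas1 32 and Lilrb4a 73 among the 9680. The fit rests on 1 residual degree of freedom, and its p-values reflect only how these libraries vary, which may be technical. With genotype alone in the model, so that both libraries of a genotype serve as replicates, none of the 10 passed (edgeR adjusted p from 0.134 for Epas1 to 0.964 for Fgl2). That model counts the aTreg to rTreg difference as spread between replicates, and the 10 were selected on that difference. Its outcome therefore decides nothing about their genotype change. The changes of the 6 in that model were 2.15 for Epas1, 2.03 for Lilrb4b, 1.56 for Lilrb4a, 1.02 for Mmp9, 0.98 for Csf1 and 0.62 for Asb2. In the authors' deposited table none of the 10 had an adjusted p under 0.05, and the lowest was 0.216 for Epas1. The standard errors of the log2 fold changes there ran from 0.92 for Fgl2 to 1.86 for Lilrb4a. Taken as WT minus KO-labelled, the deposited changes were -2.16 for Epas1, -0.63 for Asb2 and 0.10 for Penk. With genotype alone they were 2.15, 0.62 and -0.11 as KO-labelled minus WT, close in size. If state was not in the authors' model, the limit given for genotype alone holds for the deposited values too. They are therefore not a separate check of the genotype change.

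Within each state the KO-labelled to WT ratio can be described but not tested. In rTreg 4 of the 10 were at least 2-fold higher (3.41% of tested genes), namely Lilrb4a with a log2 ratio of 2.65, Lilrb4b with 2.60, Epas1 with 1.80 and Asb2 with 1.21. In aTreg 5 were (3.95% of tested genes): Epas1 with 2.23, Lilrb4b with 1.93, Lilrb4a with 1.43, Mmp9 with 1.05 and Csf1 with 1.04. Hic1, Penk and Fgl2 had opposite signs in the states, 3 of 10 beside 17.3% of tested genes. The aTreg log2 ratio was -0.82 for Hic1 (95% counting interval -1.04 to -0.62), -0.35 for Penk (-0.51 to -0.19) and -0.19 for Fgl2 (-0.31 to -0.07).

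**Figure D3:**
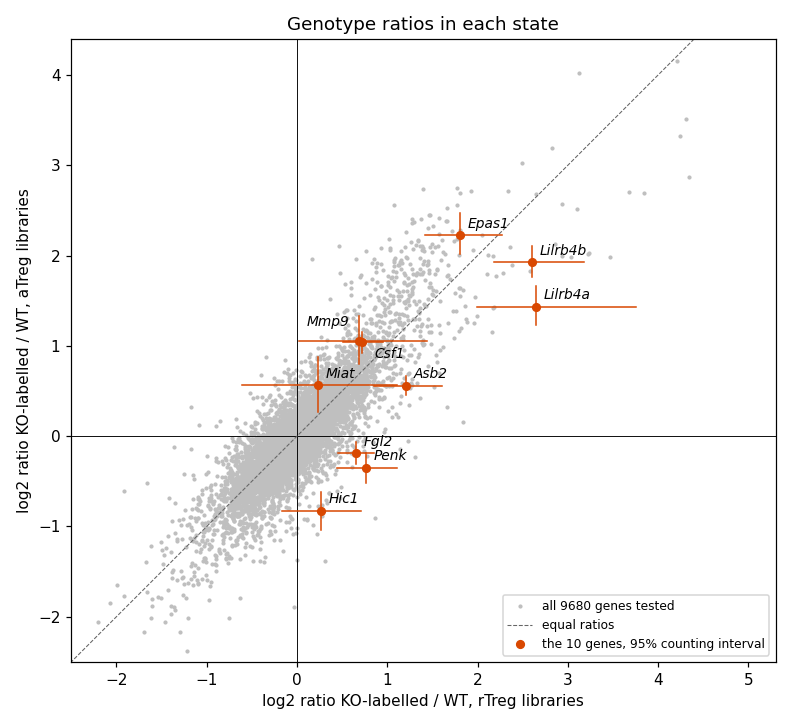
Log2 ratio of KO-labelled to WT in aTreg (vertical axis) against that in rTreg (horizontal axis), with every tested gene as a grey point and the 10 genes named; 4 tested genes lie outside the axes. Lilrb4a, Lilrb4b and Epas1 lie far to the upper right, and Hic1, Penk and Fgl2 lie under the horizontal zero line.

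Levels of different genes were compared per kilobase of exon (GENCODE M21, all annotated exons of a gene merged). That length was 5227 bases for Lilrb4a and 5439 for Lilrb4b, against 1381 and 1836 bases for the transcripts compared above. A shorter length would raise both genes, so their place among the 10 depends on the length used. With the merged lengths Penk had the highest mean of the 10, with 3.88 and 22.0 CPM per kilobase in WT (rTreg, then aTreg) and 6.64 and 17.3 in KO-labelled. Asb2 followed with 1.22, 16.2, 2.87 and 23.9, and Fgl2 with 4.75, 16.5, 7.48 and 14.5. Csf1 came next by mean, with 2.59, 8.66, 4.29 and 17.8. The order of these 4 changed from library to library, so they were not ranked apart. Miat was the lowest by mean, with 0.128, 0.831, 0.153 and 1.23 CPM per kilobase.

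**Figure D4:**
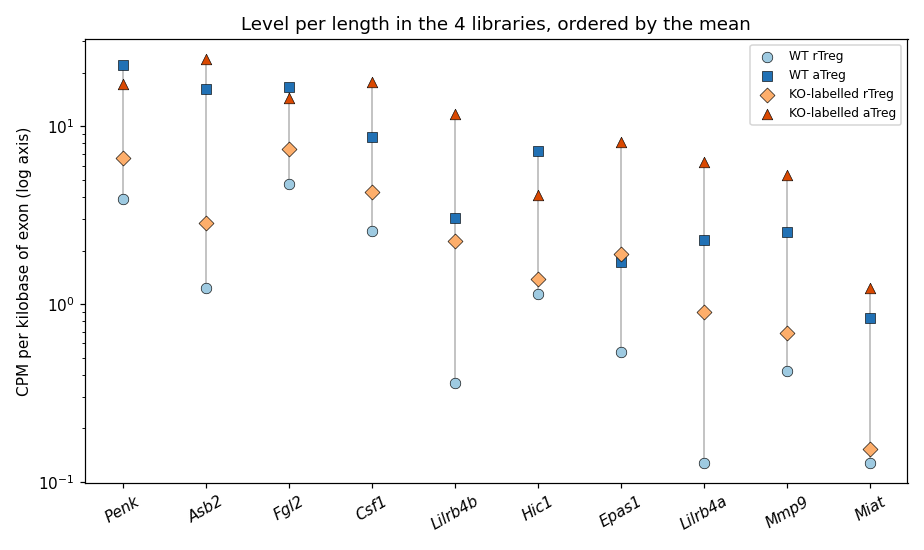
CPM per kilobase of exon for each of the 10 genes on a log axis, ordered by the mean of the 4 libraries, with 1 point per library. Penk, Asb2, Fgl2 and Csf1 overlap at the top, and Miat is lowest by mean, although Lilrb4a and Miat are about level in WT rTreg (0.128 each). The place of Lilrb4a and Lilrb4b depends on the exon length used.

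The likeness of profiles was measured as the Euclidean distance between log2 CPM profiles over the 4 libraries, each centred on its own mean, among 9260 candidate genes that left out the 10 themselves. The nearest of these candidates to Csf1, Mmp9, Miat and Asb2 was Pvrig, an inhibitory receptor, at distances of 0.331, 0.537, 0.686 and 1.25. Ccl5, a chemokine, was the nearest candidate to Lilrb4b (0.435), Epas1 (0.634) and Lilrb4a (1.15). Ccl5 itself measured 4.43 and 26.0 CPM in WT (rTreg, then aTreg) and 23.5 and 97.3 CPM in KO-labelled. The nearest candidates to Fgl2 were Cebpa (0.153) and Tnf (0.214), that to Penk was Rnase4 (0.367) and that to Hic1 was Sccpdh (0.401). Among the 10 themselves the closest pair was Miat and Mmp9 (0.475), then Hic1 and Penk (0.515), Penk and Fgl2 (0.573), and Lilrb4a and Lilrb4b (0.769). Mmp9 (0.834) was closer to Asb2 than Pvrig was. The farthest pair was Lilrb4a and Fgl2 (2.71). A profile of 4 libraries holds little information, and these distances are a description.

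Partners of the 10 were read from lists. Over all lists, with each gene once and the 10 left out, 93 genes were tested, of which 25 rose and 30 fell with genotype and 22 rose and 8 fell with state. The shares over all tested genes were 24.4% and 22.8% for genotype and 7.91% and 5.44% for state. Of 13 tested genes of the Cullin-5 ligase and ASB family, none was called for state, and 4 rose and 2 fell with genotype, where all tested genes gave 24.4% and 22.8%. Elob, an adaptor subunit, rose by 0.51 (edgeR adjusted p = 8.16e-05) and Asb13 fell by 0.48 (0.000539). Of 5 tested filamins and JAK kinases, known substrates of ASB2, Flna rose by 0.35 in the KO-labelled libraries (edgeR adjusted p = 0.00995) and Jak1 fell by 0.28 (0.00536). Of 5 tested inhibitory immunoglobulin receptors, their ligands and phosphatases, 2 rose with state and 3 fell with genotype, among them Apoe by 0.81 (0.000773) and Ptpn6, the phosphatase SHP-1, by 0.28 (0.00378). Of the CSF1 axis 2 genes were tested, and Csf1r, the receptor of CSF1, had 3 to 9 counts a library. Of 5 tested matrix metalloproteinases and inhibitors, Mmp25 rose by 1.64 and Timp2 by 0.69 in aTreg (edgeR adjusted p = 0.000178 and 6.53e-05), and Mmp25 fell by 0.67 with genotype (0.0159).

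Of 12 tested genes of the HIF subunits and oxygen sensing, 6 rose and 2 fell with genotype and 2 rose and 1 fell with state (24.4%, 22.8%, 7.91% and 5.44% of all tested genes, in that order), with a median genotype change of 0.14. Hif1a, the oxygen-regulated subunit of HIF-1, rose by 0.78 (edgeR adjusted p = 8.16e-06), and Arnt2, a dimerisation partner, rose by 1.13 with genotype (0.000295) and 1.20 with state (0.000979). Of 9 tested HIC1 partners and retinoid receptors, 1 rose and 4 fell with genotype. Rxrb fell by 0.52 (3.92e-05) and Rxra rose by 0.45 (0.000381). Of the opioid list only Furin, a protease, was tested, and it rose by 0.64 in aTreg (0.000443). Of 16 tested genes of the long noncoding RNA list, which leaves out Miat, 1 rose and 9 fell with genotype (24.4% and 22.8% of all tested genes). Malat1 fell by 1.45 (1.53e-07) and Neat1 by 1.01 (2.13e-07). Ptprv, also on the list, rose by 0.96 with state (2.16e-05) and is among the 9 that fell with genotype. Its symbol names a receptor-type protein tyrosine phosphatase and not a long noncoding RNA. Of 25 transcription factors of Treg activation and effector function, 10 rose and 7 fell in aTreg and 8 rose and 7 fell with genotype. Prdm1, the gene of the effector regulator BLIMP-1, rose by 0.97 with state (0.000509) and 1.16 with genotype (2.39e-05), and Runx3 rose by 0.96 with genotype (3.4e-07). No gene of the fibrinogen-like list other than Fgl2 passed the level filter. The p-values in brackets are adjusted edgeR values.

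Several of the 10 are also made by myeloid or stromal cells, so markers of other cells were summed. The 8 monocyte and macrophage markers summed to 16.2 CPM (WT rTreg), 16.3 CPM (WT aTreg), 27.6 CPM (KO-labelled rTreg) and 21.9 CPM (KO-labelled aTreg), with 6 of 8 counted in every library, most of it Cd68 at 12.2 to 14.4 CPM. Adgre1, a macrophage marker, had 0 to 2 counts a library. Mpeg1 was 1.91, 2.19, 8.91 and 6.40 CPM in the same order, and was higher in the KO-labelled libraries, as were Lilrb4a, Lilrb4b and Epas1. Its part in their genotype change was not tested. The 6 neutrophil markers summed to 0.0476, 0.534, 3.29 and 1.33 CPM, with Elane at 0 in 2 libraries, and the 4 of 6 dendritic markers measured to 0.953, 3.01, 3.12 and 5.38 CPM. The 4 erythroid markers summed to 0.619, 1.65, 9.20 and 10.3 CPM, the 2 of 4 NK markers measured to 2.19, 2.91, 7.27 and 7.35 and the 2 of 4 mast cell markers measured to 2.33, 2.82, 3.41 and 5.65. B cell markers summed to 12.9, 17.9, 15.6 and 19.1 CPM, plasma cell markers to 0.429, 0.777, 1.82 and 1.12 and CD8 markers to 7.82 to 12.9. The endothelial and stromal list summed to 152 to 228 CPM, nearly all of it Pecam1, and Kdr had no count in 3 libraries. The monocyte and macrophage, neutrophil, dendritic, erythroid, NK, mast and plasma cell sums were higher in both KO-labelled libraries than in both WT libraries. Single markers did not all follow. In the KO-labelled libraries (rTreg, then aTreg) most of the NK sum was Eomes (6.98 and 5.97 CPM), of the mast sum Kit (2.95 and 5.54) and of the plasma sum Jchain (1.53 and 0.853). In each state Klrb1c of the NK list, Cpa3 of the mast list and Csf1r of the macrophage list were lower in KO-labelled than in WT. The dendritic, B, NK, mast and erythroid sums were higher in aTreg than in rTreg in both genotypes. The 6 Treg markers summed to between 3071 and 3430 CPM. The part of these markers in the results on the 10 genes was not tested.

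Promoter windows, 250 bases before to 50 after a transcription start in RefSeq on GRCm38.p6, were found for 6 of the 10 genes. Those of Asb2, Csf1 and Fgl2 are shown because these are among the most abundant of the 10 and each holds a searched motif, in capitals, on the strand of transcription, minus for Asb2 (chr12:103355952-103356251) and Csf1 (chr3:107760420-107760719) and plus for Fgl2 (chr5:21372423-21372722).
Asb2: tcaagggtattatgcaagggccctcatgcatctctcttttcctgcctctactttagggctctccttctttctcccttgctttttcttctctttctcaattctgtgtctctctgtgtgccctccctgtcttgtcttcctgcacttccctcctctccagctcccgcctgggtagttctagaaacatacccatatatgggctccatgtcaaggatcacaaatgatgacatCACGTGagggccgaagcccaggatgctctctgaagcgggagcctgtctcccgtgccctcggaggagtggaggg
Csf1: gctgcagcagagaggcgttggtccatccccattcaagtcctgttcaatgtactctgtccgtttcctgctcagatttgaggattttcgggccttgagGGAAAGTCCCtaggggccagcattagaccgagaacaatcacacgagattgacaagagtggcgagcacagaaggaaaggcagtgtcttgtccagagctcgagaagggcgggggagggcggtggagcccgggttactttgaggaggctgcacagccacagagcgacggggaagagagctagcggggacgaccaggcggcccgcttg
Fgl2: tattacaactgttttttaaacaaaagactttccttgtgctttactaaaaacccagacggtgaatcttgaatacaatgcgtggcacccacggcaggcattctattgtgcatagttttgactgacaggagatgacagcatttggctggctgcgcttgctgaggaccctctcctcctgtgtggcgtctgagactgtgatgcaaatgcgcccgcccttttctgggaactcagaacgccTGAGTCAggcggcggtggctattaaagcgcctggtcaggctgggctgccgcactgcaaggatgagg
The searched motifs, on both strands, were AP-1 (TGANTCA), CRE (TGACGTCA), the hypoxia response core (ACGTG), T-box (AGGTGTGA), Runx (TGTGGT) and NF-kappaB. The Asb2 window holds the hypoxia response core 23 to 18 bases before the start, as matches on both strands that overlap, and 19.7% of 32544 promoters hold that motif. The Csf1 window holds an NF-kappaB motif (8.49% of promoters) and the Fgl2 window an AP-1 motif (7.79% of promoters) at 16 to 10 bases before the start. A Runx motif (16.7%) is in a second Asb2 window and an NF-kappaB motif is in a Hic1 window. The windows of Miat and Lilrb4b hold none of these letters. CRE and T-box motifs, in 1.8% and 1.28% of promoters, were in no window of the 10. A match is a description of the letters and not a binding site.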

How the data were processed

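The submitters' processing notes name HISAT2 2.2.1, featureCounts 2.0.1 and GRCm38. The gene annotation and strand setting: not given in the sources used here. The deposited table holds raw read counts per gene symbol for 4 libraries, 1 per group. A second deposited table holds variance-stabilised values on a log2-like scale, the authors' log2 fold change between genotypes and its standard error, a mean normalized signal, a test score, and p-values, per the file headers.

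Counts were analysed in R 4.3.3 with edgeR 4.0.16 (TMM scaling, prior count 2, quasi-likelihood test with state and genotype as additive terms). The test kept genes averaging 5 CPM or more, 9680 genes holding 99.3% of counts, and p-values were adjusted by Benjamini-Hochberg at 0.05. Ratios of 2 libraries carry exact binomial 95% intervals, which cover counting error only. Alternatives were DESeq2 1.42.0, other scalings, filters, prior counts, genotype alone and the summed Lilrb4 pair.

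The members and lists were chosen with earlier results of these data known. Named genes were the 10 members, the 3 nearest profiles of each, and of each list the 3 largest called changes per factor, of which some are not reported here. Lilrb4b was matched to the annotation symbol Lilr4b. Nothing says that the libraries came from separate mice.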

Additional observations from a re-analysis of the deposited data

Results flagged for a closer look

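Hic1, Penk and Fgl2 were picked out because the KO-labelled to WT log2 ratio had opposite signs in rTreg and aTreg. For Hic1 it was 0.263 in rTreg, with a counting interval that spans 0, and -0.823 in aTreg. For Penk it was 0.765 and -0.349, and for Fgl2 it was 0.65 and -0.189. With 1 library per group the difference between the states was not tested.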

How the results depend on the processing

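Of the member ratios recomputed under the alternatives, 238 moved by less than their counting interval, 34 moved further and 0 changed sign; the 34 are all from the authors' deposited variance-stabilised values. On those values the members at least 2-fold higher in the KO-labelled genotype numbered 0 in place of 4 in rTreg and 2 in place of 5 in aTreg. With genotype alone in the model, 0 of the 6 called members passed although their changes kept their sign (0.62 to 2.15), the genes called for genotype fell from 4573 to 1626 and the called list genes from 55 to 12, and the change of Penk was -0.112 in place of 0.10. That model counts the difference between states as spread between replicates, so it decides nothing about genes selected on that difference. The cause of the other changes was not tested. With DESeq2 the genes called for genotype numbered 2527 and for state 423 in place of 1293, and the called list genes 31 for genotype and 18 in place of 30 for state. All 6 called members passed with DESeq2 (as a test or its size factors), upper-quartile scaling and both other filters, and with the Lilrb4 pair summed the 5 resulting entries passed. Hic1 passed with no filter (-0.41). No paired analysis was possible because each group holds 1 library and the labels give no replicate numbers; the state term of the model already matches libraries by state. Leaving out a library was not run, since it leaves no residual degree of freedom. Depth limits the rTreg values of Miat and Mmp9 (25 to 43 counts) and, in WT rTreg, of Lilrb4a (14 counts) and Lilrb4b (41 counts).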
